A study of Arabidopsis thaliana with 4 samples.

Results

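The WRKY transcription factors of Arabidopsis thaliana were followed in whole young seedlings, with and without CDB1. A gene was taken as a member where the annotation of the array gave a probe set exactly 1 symbol made of WRKY and a number. This named 6 genes, WRKY6, WRKY20, WRKY22, WRKY42, WRKY47 and WRKY53, out of 13350 genes with a single symbol on the array. Each is read by 1 probe set of the plain kind, which carries no mark for probes shared with other transcripts.

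Total RNA was hybridised to 4 Affymetrix ATH1 arrays, 1 RNA sample per array. In 2 samples the seedlings lacked CDB1 (genetic variation: complete knockout; background: Col-0), and in the other 2 they were wild type Col-0 plants (stock code N1092). All seedlings were harvested whole at stage 1.02 from a growth room kept at 20 °C and 80% humidity, with days of 16 h. Polycomb, to which the title of the series says the protein binds, is a group of complexes that keeps genes silent through chromatin. The labels give no allele, no line number and no age in days, and they do not say whether replicates came from separate plantings. The spread behind each p-value is thus that of these 4 arrays, shared in part across probe sets, and may be technical. CDB1 itself could not be checked, since no table used here ties that name to a probe set.

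WRKY proteins are plant transcription factors named after the amino acids that open their DNA-binding domain, which holds a zinc finger and binds a short promoter element called the W box. They are grouped by the number of WRKY domains and by the type of zinc finger. Many of their genes are themselves switched on quickly by pathogens, wounding or salicylic acid, some act in leaf senescence or in phosphate supply, and the factors bind the promoters of other family members. Several of the genes therefore serve as markers of defence and stress state.

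The family was covered only in small part. The RefSeq annotation of assembly TAIR10.1 holds 72 loci with a WRKY symbol or synonym, and 65 of them were not paired with a named probe set here. Some may be read by the 8730 probe sets that the annotation does not list. Of the 6 members, 5 lie on chromosome 4 and 1 on chromosome 1, whereas RefSeq places 16 of the 72 loci on chromosome 4 and 16 on chromosome 1. Among all genes with a single symbol that RefSeq places, 14.6% lie on chromosome 4. A further family member is listed under another name. ZAP1 on chromosome 2, a factor with 2 WRKY domains that is also called WRKY1, did not meet the rule and is given for comparison without being counted.

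Signals were MAS5 values in arbitrary units, which the authors had scaled per array. The 4 array medians ran from 47.9 to 50.6. A probe set was taken as bright, and tested, where its mean over the 4 arrays reached 19.5, the 30th percentile of the 22746 probe sets that are not controls. Correlations across the tested probe sets were 0.982 between the knockout arrays, 0.977 between the wild type arrays and 0.975 to 0.984 between arrays of different groups. Replicates were thus about as far apart as the groups. Markers of both shoot and root were bright on all 4 arrays. The photosynthesis genes RCA and LHCB4.1 read 2430 and 2685, and 2064 and 1808, on the knockout arrays, against 2672 and 2292, and 1518 and 1568, on the wild type arrays. The root gene PYK10, a beta-glucosidase of root endoplasmic reticulum bodies, read 2545 and 2859 on the knockout arrays, against 2967 and 2599 on the wild type arrays. The root hair expansins EXPA7 (knockout 55.9 and 55.9, wild type 28.7 and 50.3) and EXPA18 (knockout 58.5 and 60.9, wild type 51.0 and 49.5) lay above the floor on all 4 arrays. None of these 5 markers passed the test. For LHCB4.1, EXPA7 and EXPA18 both knockout arrays lay above both wild type arrays, and RCA and PYK10 overlapped. Over all tested probe sets 15% were higher in the knockout without overlap. Only 2 of 13 listed shoot and 3 of 8 listed root markers were named by a probe set. The listed seed and flower markers were not named by any probe set. In whole seedlings fewer cells of a type and less RNA per cell cannot be told apart.

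Most of the named WRKY genes gave a signal above the floor in seedlings of both groups, and none passed the test between knockout and wild type. WRKY6, WRKY20, WRKY22, WRKY47 and WRKY53 lay above the brightness floor on every one of the 4 arrays, and WRKY42 lay below it on all 4. So 5 of 6 members were bright, where the floor itself keeps 70% of all probe sets. The log2 fold changes of the 5 ran between -0.14 and 0.16, and their limma adjusted p was 0.998 for each. In the same test 0.32% of the 15924 tested probe sets passed at the adjusted threshold of 0.05, and against that background 0 of 5 says nothing particular about the family. At an unadjusted p of 0.05, 0 of the 5 members passed as well, against 834 of 15924 probe sets in limma. Brightness also depends on how well each probe set binds, so the levels of different genes are not ranked here.

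**Figure D1:**
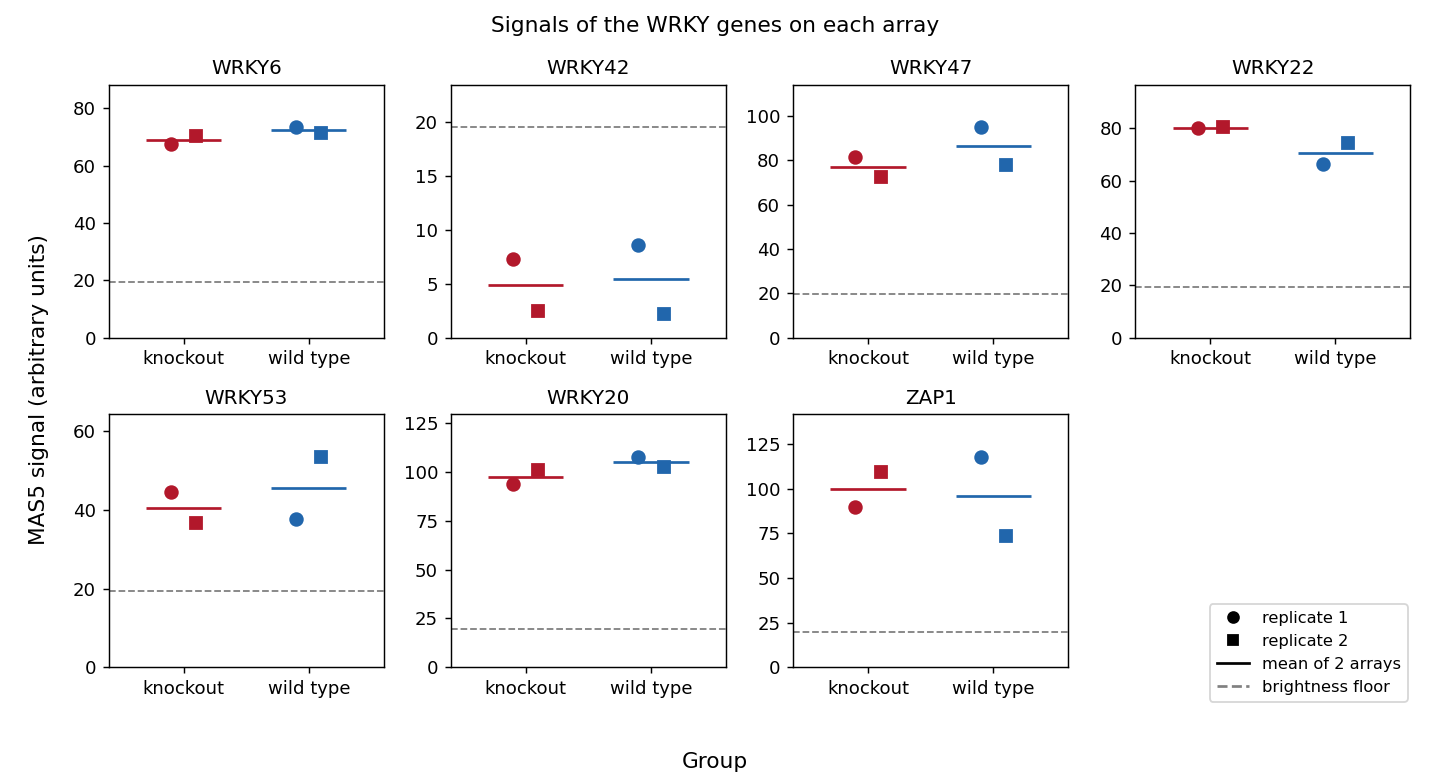
MAS5 signal (vertical axis, arbitrary units, from 0) of the 6 WRKY genes and ZAP1 on the 2 knockout arrays (red) and the 2 wild type arrays (blue), with circles for replicate 1, squares for replicate 2, lines for group means and a dashed line at the brightness floor of 19.5. The groups do not overlap for WRKY6, WRKY22 and WRKY20, by a small margin for WRKY6 and WRKY20, and overlap for the other genes. Over all tested probe sets 31.9% do not overlap. WRKY42 lies below the floor on all 4 arrays.

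WRKY22 acts downstream of the mitogen-activated protein kinase cascade that follows the perception of bacterial flagellin, and it also takes part in dark-induced leaf senescence. It was the only bright member with a value above 0. Its signals were 80.1 and 80.5 on the knockout arrays, against 66.5 and 74.3 on the wild type arrays. Both knockout arrays lay above both wild type arrays, and they were nearly equal to each other. WRKY22 averaged 80.3 ± 0.283 in the knockout and 70.4 ± 5.52 in wild type (SD, n = 2 each). The log2 fold change was 0.16 (SE 0.144, 95% interval -0.16 to 0.48, limma adjusted p = 0.998), and 0.093 to 0.22 with 1 array left out. Since the groups did not overlap, leaving out 1 array could not turn its sign.

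WRKY53 promotes leaf senescence and takes part in salicylic acid dependent defence. Its signals were 44.5 and 36.8 on the knockout arrays, against 37.8 and 53.6 on the wild type arrays. The groups overlapped, and the highest and the second lowest value both came from wild type. Among the 5 bright members WRKY53 had the widest gap between replicates on the log2 scale, 0.20 in the knockout and 0.37 in wild type. Its log2 fold change was -0.11 (SE 0.177, 95% interval -0.50 to 0.28, limma adjusted p = 0.998). The direction rested on 1 array, since the value was 0.071 without wild type replicate 2 and -0.30 without wild type replicate 1.

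WRKY6, WRKY42 and WRKY47 belong to the same subgroup, IIb, of the family. WRKY6 is known for senescence and pathogen responses and for repressing PHO1, a gene of phosphate loading into the xylem. Its signals were 67.5 and 70.5 on the knockout arrays, against 73.5 and 71.6 on the wild type arrays. Both knockout arrays lay below both wild type arrays, by a small margin, since 70.5 and 71.6 are neighbours. The log2 fold change was -0.06 (SE 0.143, 95% interval -0.37 to 0.26, limma adjusted p = 0.998), and -0.085 to -0.034 with 1 array left out. WRKY6 also had narrow gaps between replicates, 0.051 in the knockout and 0.031 in wild type on the log2 scale. Its SE does not rest on these gaps alone, since limma draws each variance toward a trend over all tested probe sets.

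WRKY47 read 81.2 and 72.3 on the knockout arrays, against 94.9 and 77.9 on the wild type arrays. The groups overlapped, and in both groups replicate 1 was the higher array. WRKY47 averaged 76.8 ± 6.29 in the knockout and 86.4 ± 12.0 in wild type (SD, n = 2 each). Its log2 fold change was -0.14 (SE 0.153, 95% interval -0.48 to 0.20, limma adjusted p = 0.998). Wild type replicate 1 decided its size, which was -0.019 without that array and -0.26 without wild type replicate 2.

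WRKY42, which is known to act on phosphate uptake and transport genes, was the dim member. Its signals were 7.3 and 2.5 on the knockout arrays, against 8.6 and 2.2 on the wild type arrays. All lay below the floor and the groups overlapped, so no fold change is given. Replicate 1 was the higher array in both groups, as it was for WRKY47.

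WRKY20 belongs to group I, whose proteins carry 2 WRKY domains, and RefSeq lists 7 transcripts for it. Its signals were 94.2 and 101.2 on the knockout arrays, against 108.0 and 102.9 on the wild type arrays. Both knockout arrays lay below both wild type arrays, with neighbours at 101.2 and 102.9. The log2 fold change was -0.10 (SE 0.140, 95% interval -0.41 to 0.21, limma adjusted p = 0.998), and -0.14 to -0.051 with 1 array left out. ZAP1, of the same group I, read 90.0 and 109.6 on the knockout arrays, against 118.1 and 73.8 on the wild type arrays. The wild type arrays held both the highest and the lowest value, so that its log2 fold change of 0.07 turned to -0.22 without wild type replicate 2 and grew to 0.36 without wild type replicate 1.

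**Figure D2:**
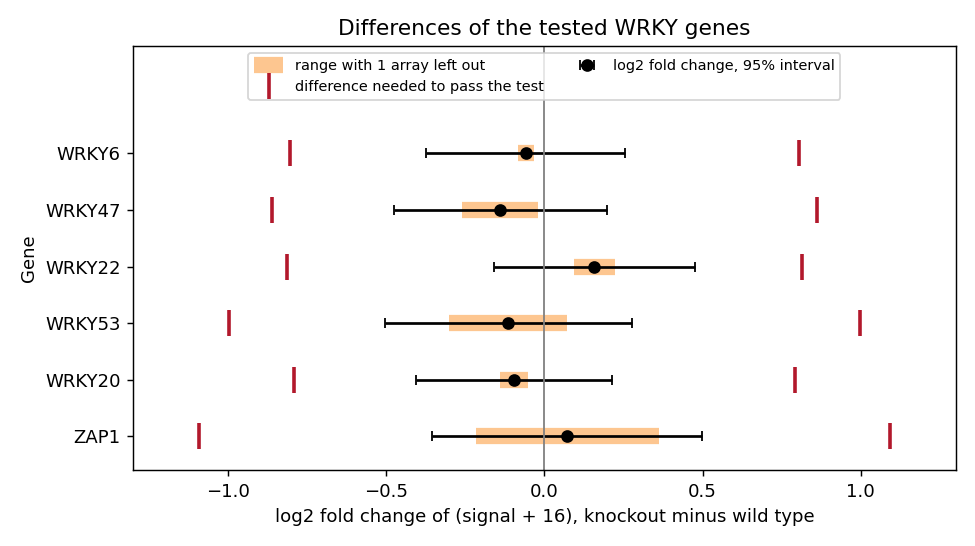
log2 fold change of (signal + 16), knockout minus wild type (horizontal axis), of the 5 tested WRKY genes and ZAP1, with the 95% interval of limma (black), the range with 1 array left out (orange) and the difference each gene would have needed to pass the adjusted test (red marks). All 6 intervals include 0 and end short of the red marks, and the orange ranges of WRKY53 and ZAP1 cross 0.

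The size of change that could have been seen was limited. For the 5 tested members the smallest difference that would have passed the adjusted test was 0.79 to 1.00 on the log2 scale, given their SE and the largest p among the 51 calls. The 95% intervals, which are not adjusted for the number of genes, ran from -0.50 to 0.48 at their widest ends. On the scale of signal + 16 this bounds a fall at 1.42-fold, reached by WRKY53, and a rise at 1.39-fold, reached by WRKY22. Observed differences short of the 0.79 to 1.00 could not pass in this fit with 2 arrays per group. The missed threshold does not show that the groups are alike.

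As a list, the 5 tested members had a median log2 fold change of -0.10, with 1 above and 4 below 0. Over all tested probe sets the median was -0.01 and 54% lay below 0. The groups did not overlap for 3 of the 5 members, 1 higher (WRKY22) and 2 lower (WRKY6 and WRKY20) in the knockout. Over all tested probe sets the groups did not overlap for 31.9%, 15% higher and 16.9% lower in the knockout, and with 5 genes no more can be read from this count. The 5254 probe sets in the brightness range of the members, with mean signals of 43.2 to 102, had a median gap between replicates of 0.15 in the knockout and 0.17 in wild type on the log2 scale. Their median absolute log2 fold change was 0.10 and the upper quartile 0.18, and the largest absolute value of a member was 0.16.

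**Figure D3:**
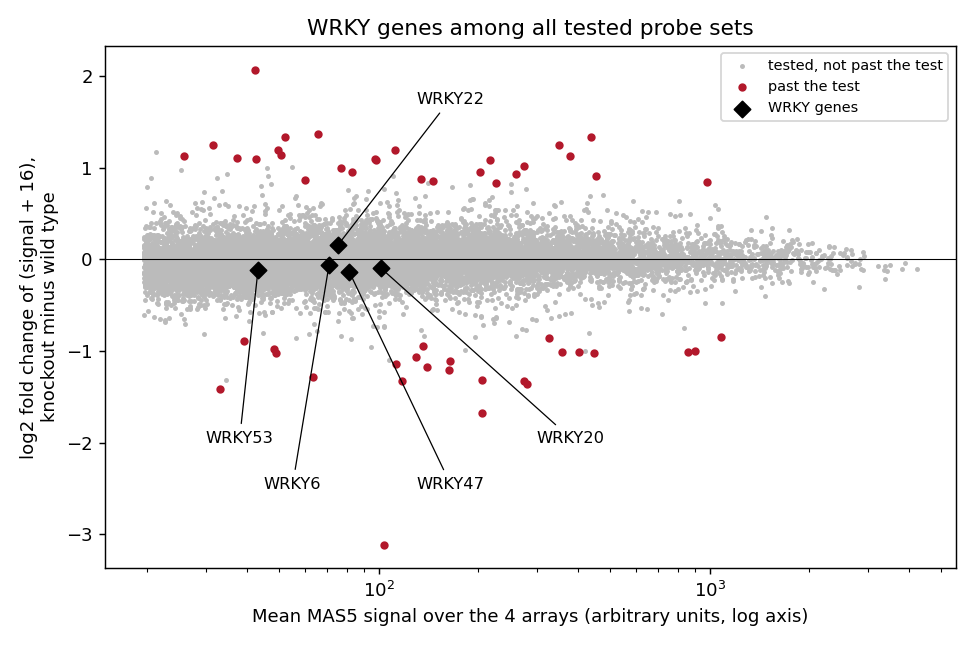
log2 fold change of (signal + 16), knockout minus wild type (vertical axis), against the mean signal over the 4 arrays (horizontal log axis, arbitrary units) of 15924 tested probe sets (grey), the 51 that passed the test (red) and the 5 tested WRKY genes (black diamonds). The 5 WRKY genes lie within the grey band around 0, between -0.14 and 0.16.

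Little of the pathway around the WRKY factors could be read by name. Of 23 listed kinases and partners, such as MPK3, MPK6 and NPR1, 0 were named by a probe set, and of 32 listed targets and defence outputs 1 was. That gene was SAG101, which encodes a partner of EDS1 in immune signalling and was first known from senescing leaves. SAG101 read 49.0 and 47.1 on the knockout arrays, against 48.5 and 46.4 on the wild type arrays. The groups overlapped, and the log2 fold change was 0.01 (SE 0.150, 95% interval -0.32 to 0.34, limma adjusted p = 0.998).

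Rapidly induced touch, wound and elicitor response genes were somewhat better covered, and 1 of them fell in the knockout. Of 40 listed names, 7 genes were named by a probe set and 6 were bright enough to test, of which 1 passed the test as lower and 0 as higher. Over all tested probe sets 0.151% passed as lower and 0.17% as higher. The gene was STZ, a zinc finger repressor induced by cold, salt and wounding, with 573.9 and 552.6 on the knockout arrays, against 1117 and 1194 on the wild type arrays. The knockout arrays lay far below the wild type arrays, with a log2 fold change of -1.02 (SE 0.128, limma adjusted p = 0.0101). The call was lost without knockout replicate 2 (log2 fold change -0.99) and with no brightness filter (limma adjusted p = 0.148). It was kept with the filter at the 10th percentile (limma adjusted p = 0.00747). With 6 tested genes the list had a median log2 fold change of -0.42, with 5 below and 1 above 0. Over all tested probe sets the median was -0.01. As the list was chosen with earlier results of these data known, its median is not independent evidence of a fall.

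The other 5 tested genes of that list did not pass. CML38, a calmodulin-like protein gene, read 273.7 and 244.3 on the knockout arrays, against 350.4 and 403.1 on the wild type arrays (log2 fold change -0.51, limma adjusted p = 0.355). PUB23, a ubiquitin ligase that dampens responses to microbial patterns, read 54.7 and 70.5 on the knockout arrays, against 86.6 and 114.3 on the wild type arrays (log2 fold change -0.56, limma adjusted p = 0.462). For these genes and for PUB22 (log2 fold change -0.34) both knockout arrays lay below both wild type arrays. With STZ and CCL the groups did not overlap for 5 of the 6 tested genes, 4 of them lower. Over all tested probe sets this held for 31.9%, with 16.9% lower. The list was chosen with earlier results of these data known, so this count is not independent evidence of a fall. PUB24 overlapped between the groups at -0.08. CCL, known for an unstable transcript, read 1807 and 1637 on the knockout arrays, against 1322 and 1389 on the wild type arrays (log2 fold change 0.34, limma adjusted p = 0.761). CML37, close to CML38 in sequence, read 6.2 and 5.1 on the knockout arrays, against 18.7 and 17.7 on the wild type arrays, and all 4 values lay under the floor.

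**Figure D4:**
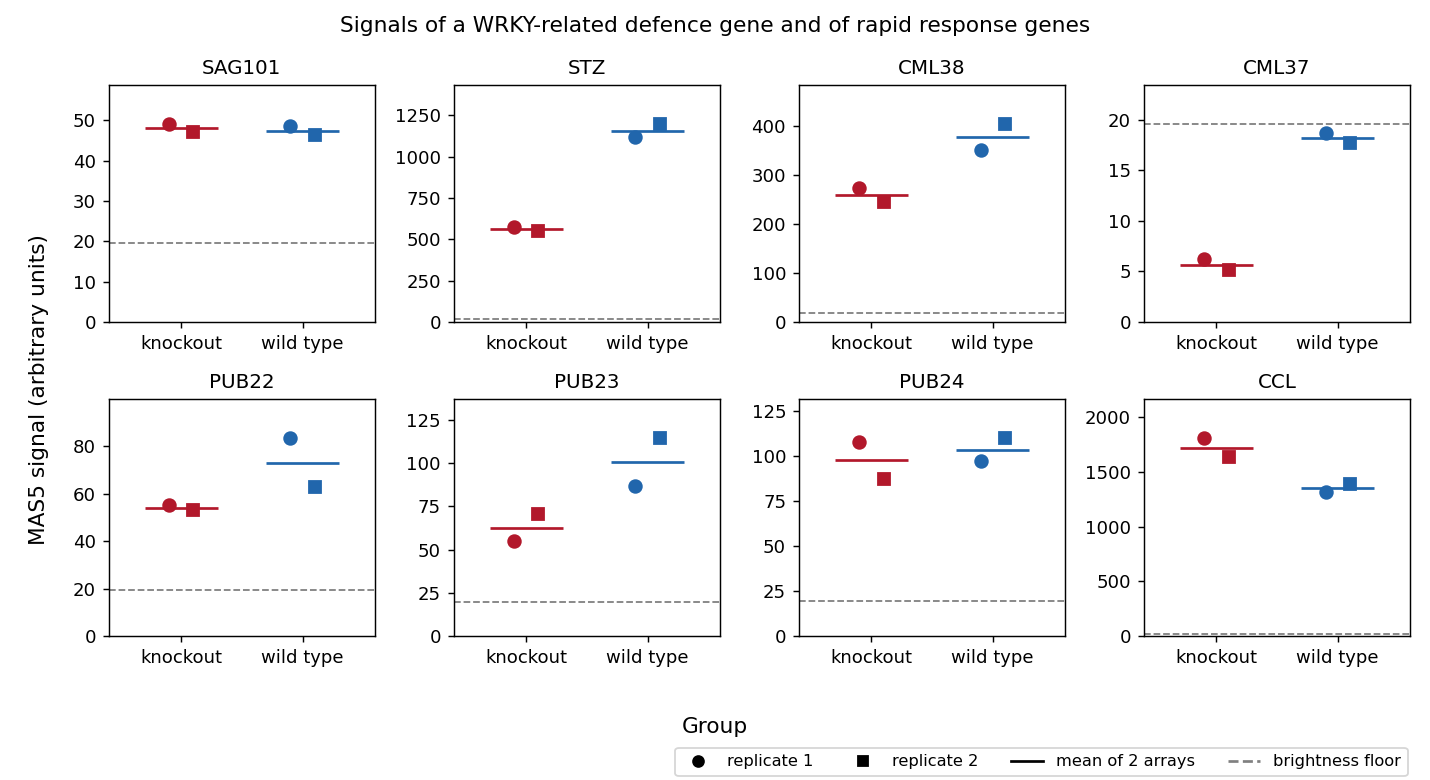
MAS5 signal (vertical axis, arbitrary units, from 0) of SAG101 and of the 7 named rapid response genes on the 2 knockout arrays (red) and the 2 wild type arrays (blue), with circles for replicate 1, squares for replicate 2, lines for group means and a dashed line at the brightness floor of 19.5. STZ stands at 573.9 and 552.6 in the knockout against 1117 and 1194 in wild type, while SAG101 overlaps between the groups.

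The jasmonate-responsive defensin gene PDF1.2, on the list of pathogen and senescence markers, read 43.1 and 28.0 on the knockout arrays, against 10.1 and 3.5 on the wild type arrays. Both wild type values lay below the floor. PDF1.2 averaged 35.55 in the knockout and 6.8 in wild type, and its mean over all arrays was 21.175. It therefore reached the floor, and was tested, only through its knockout signals. The limma adjusted p was 0.0638, short of the threshold. PDF1.2 passed with the replicate number as a block (limma adjusted p = 0.00380) and in eBayes without the trend (0.0438). It did not pass with no filter (0.417), a pseudocount of 1 (0.107) or 64 (0.0706), or quantile (0.0644) or median (0.0536) scaling. With the filter at the 10th percentile the limma adjusted p was 0.0502, also short of the threshold. Its log2 fold change of 1.18 ran from 0.96 to 1.39 with 1 array left out. For those fits, which leave 1 array in a group, only the size is given, so the settings listed here are not all that were run. Whether WRKY53 or WRKY22 differed in their change from STZ or PDF1.2 was not tested.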

How the data were processed

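Transcripts were measured in 4 samples of whole seedlings, 2 of the CDB1 knockout and 2 of the wild type, on ATH1 arrays. The deposited intensity values are MAS5 signals, per the submitters' processing notes. No version, setting or detection call is given in the sources used here. The number of arrays limits the precision. The 64 control probe sets and those with a mean signal below the 30th percentile were left out. Groups were compared on log2(signal + 16) with limma 3.58.1 in R 4.3.3 (lmFit, eBayes with trend, two-sided, Benjamini-Hochberg over 15924 probe sets), so fold changes understate those of dim genes. The SE, intervals and p-values of limma are moderated, with each variance drawn toward a trend over all tested probe sets. They are therefore not measures of a gene's own replicate spread alone. An exact permutation test of 2 against 2 cannot go below p = 0.333. Tested on simulated data for this comparison (15924 probe sets, 200 of them changed), the procedure recovered 4% of log2 changes of 0.5, 88% of those of 1 and 100% of those of 1.5 or 2, with 14 false calls among 160. The simulated noise was independent between arrays.

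Gene names came from the platform's annotation, with loci and synonyms from RefSeq TAIR10.1. No coordinates or sequences are given, as no genome or sequence table was used here. All members were to be described, with values for each list gene the annotation names. The members and lists were chosen with earlier results of these data known. Alternatives were 2 other scalings (quantile and median), pseudocounts of 1 and 64, filters at the 10th and 50th percentile and none, no trend, the replicate number as a block, and each array left out. Nothing in the labels says that replicate numbers mark a shared batch.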

Additional observations from a re-analysis of the deposited data

How the results depend on the processing

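No WRKY member passed the test under any of the 14 alternatives. These include a crossed pairing of replicates that was not planned, beside the planned ones listed above. Of 69 member values under alternatives 68 kept their direction, and the exception was WRKY53 without wild type replicate 2 (0.071). Many of these values could not turn. The filters, the trend and the blocks leave a fold change as it was. Nor can leaving out 1 array turn WRKY6, WRKY20 or WRKY22, whose groups did not overlap. With 1 array left out, WRKY53 ranged from -0.30 to 0.071, ZAP1 from -0.22 to 0.36, SAG101 from -0.010 to 0.037, PUB24 from -0.21 to 0.053, RCA from -0.064 to 0.16 and PYK10 from -0.14 to 0.053. The count of bright members was 6 with a floor at the 10th percentile, 4 at the 50th, and 5 when every array had to pass or any 1 array was left out. The median log2 fold change of the tested members stayed between -0.11 and -0.04. Over all probe sets the 51 calls became 0 with no filter (limma, 1081 of 22746 at an unadjusted p of 0.05) and 20 to 87 with 1 array left out: 23 without knockout replicate 1, 20 without knockout replicate 2 and 87 without wild type replicate 1. With the replicate block there were 89 calls. The replicate differences of the groups had a correlation of -0.301 across probe sets, which does not show how the arrays were paired, if at all. The crossed pairing, chosen after seeing the data, gave 195 calls, 0 of them WRKY members, with CML38 and PDF1.2 among them. The cause of these shifts was not tested. In the main fit, with 2 arrays per group, a member needed an observed difference of 0.79 to 1.00 on the log2 scale to pass.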
